A study of Mus musculus with 12 samples.

Results

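The semaphorin, plexin, ephrin and Eph genes encode guidance cues and their receptors, and 50 of them were measured in the nucleus accumbens of adult mice whose mothers had received poly(I:C) or saline. A gene was taken where the array annotation gave exactly 1 symbol that starts with Sema, Plxn, Efna, Efnb, Epha or Ephb. This gave 54 rows for 50 genes out of 18820 named genes, and the row with the highest mean was used for each gene. They were 20 semaphorins, 9 plexins, 5 ephrin-A, 3 ephrin-B, 9 EphA and 4 EphB genes. The genes were taken by name, and a measured value, the mean, entered only where a gene had several rows.

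Of the 12 arrays, 6 came from C57BL/6N offspring of dams that had been given the double-stranded RNA poly(I:C), a mimic of viral infection, intravenously at 5 mg/kg on gestation day 17. The other 6 came from C57BL/6N offspring of dams given intravenous saline on the same day. In both groups the offspring were 12 weeks old when the tissue was taken and had been tested for behaviour and cognition before, so the arrays report adult tissue and not the response to the injection itself. The titles number the samples as biological replicates. No source used here gives their litter, sex or array batch, so p-values treat offspring of a shared litter, if there were any, as separate animals.

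Semaphorins are secreted or membrane-bound ligands that steer axons and shape synapses. They act through plexins, with neuropilins as co-receptors for most secreted members. Ephrins are membrane-bound ligands of the Eph receptor tyrosine kinases, and signal in both directions across a cell contact. A-type ephrins are held by a lipid anchor and B-type ephrins span the membrane. In the striatum these systems take part in the sorting of striosome and matrix neurons, in the growth of striatal output axons and in the choice of synaptic partners.

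Values are log2 signals normalized across arrays by RMA, with array medians between 4.78 and 4.85 and pairwise correlations between arrays from 0.991 to 0.997. Markers of medium spiny neurons were present (7 of 9 listed genes measured). Their mean lay between 9.47 and 9.86 in poly(I:C) offspring and between 9.25 and 9.81 in controls. Markers of neighbouring tissue and of myelin differed between arrays. For cortical glutamatergic neurons (9 of 10 listed genes measured) the mean ran from 5.94 to 6.80 in poly(I:C) offspring and from 5.54 to 6.69 in controls. For choroid plexus and ependyma (10 of 11 listed genes measured) the mean ran from 4.80 to 5.02 in poly(I:C) offspring and from 4.94 to 6.91 in controls, with controls 4 and 6 at 6.30 and 6.91. Cortical signal was thus highest in 4 poly(I:C) arrays and 1 control, and choroid plexus signal in 2 controls. For septum, pallidum and diencephalon (9 of 10 listed genes measured) the mean ran from 5.55 to 6.26 in poly(I:C) offspring and from 5.70 to 6.52 in controls. For myelin and oligodendrocytes (10 of 12 listed genes measured) the mean ran from 7.80 to 7.98 in poly(I:C) offspring and from 7.94 to 8.51 in controls. The list mean thus barely overlapped between the groups. The poly(I:C) mean was below the control mean for all 10 genes, 1 of them at an adjusted p under 0.05 and 3 of them with no overlap between the groups. In a tissue sample, fewer cells of a type and less RNA per cell cannot be told apart.

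None of the 50 guidance genes changed after prenatal poly(I:C) at an adjusted p under 0.05. The smallest adjusted p was 0.155 (limma, Benjamini-Hochberg over 21218 rows), and over all rows 13 passed (0.0613%), 6 of them higher (0.0283%) and 7 lower (0.033%). At an unadjusted p under 0.05 there were 7 of the 50 genes (14%), against 14.4% of all rows, so with all arrays the share was near the background. It depended on single arrays: without control 1 there were 14 of the 50 (28%, against 14.8% of all rows), and without control 3 there were 13 (26%, against 17.1%). Of the 7 genes found with all arrays, 4 were higher (8%, background 7.83%) and 3 were lower (6%, background 6.57%) in poly(I:C) offspring. In 0 of the 50 genes were the 2 groups free of overlap, against 1.13% of all rows. The median difference was 0.021 over the 50 genes and 0.0016 over all rows, each taken on the log2 scale with the control mean subtracted from the poly(I:C) mean.

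In the fit with exposure alone, the intervals bound the difference of each gene taken singly. These 95% intervals of the 50 genes all lay between -0.45, the lower bound of Plxnd1, and 0.49, the upper bound of Sema5b. They do not cover the fits with covariates, where Plxnd1 was at -0.52 with the myelin list mean. The genes also varied more between animals of a group than most rows did. The median SD within groups was 0.136 for the 50 genes and 0.087 for all rows, a description that takes no account of signal level. Of the 50 genes 13 are called dim here, since even their brighter group mean was below 5.47. This is the median level of the 21218 tested rows, those with 1 symbol, and low array signals compress differences.

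**Figure D1:**
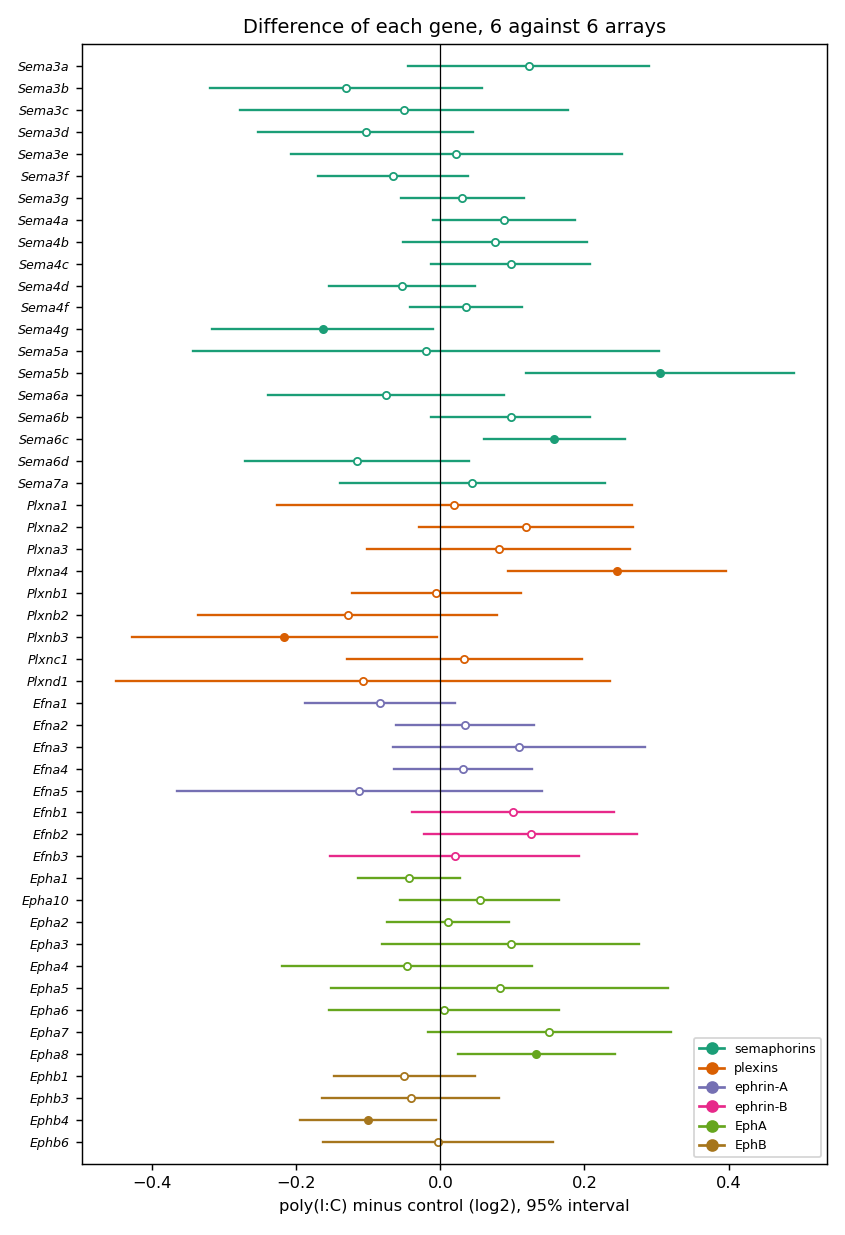
Log2 difference of each of the 50 genes, poly(I:C) mean less control mean, as a point with its 95% interval from the fit over all rows. Filled points mark the 7 genes with an unadjusted p under 0.05, no gene passed after adjustment, and no interval reaches beyond 0.49 in size.

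Among the ligands, 17 of 28 were higher in value (60.7%, all rows 50.9%) and 11 lower, and 0 passed the adjusted test. At an unadjusted p under 0.05 there were 3 of the 28, against 14.4% of all rows. Sema5b, a transmembrane semaphorin with thrombospondin repeats, had the largest difference of the 50 genes. Its lowest, median and highest values were 6.07, 6.17 and 6.30 in poly(I:C) offspring, against 5.60, 5.89 and 6.17 in controls. Control 3 was the only control inside the poly(I:C) range, and 3 poly(I:C) arrays lay above every control. The means were 6.18 ± 0.10 in poly(I:C) offspring and 5.88 ± 0.22 in controls (SD, n = 6 each), a difference of 0.30 (95% interval 0.12 to 0.49, limma adjusted p = 0.155).

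Sema6c, a transmembrane class 6 semaphorin, was dim. Its values were 4.96, 5.01 and 5.14 (lowest, median, highest) in poly(I:C) offspring and 4.77, 4.86 and 4.97 in controls. The groups overlapped only at the edge, with 4 poly(I:C) arrays above every control. The difference was 0.16 (95% interval 0.06 to 0.26, limma adjusted p = 0.157). Sema4g, a class 4 semaphorin that binds plexin-B2 in mouse cerebellum, stood at 5.31, 5.63 and 5.75 in poly(I:C) offspring and at 5.61, 5.72 and 5.88 in controls. Its difference was -0.16 (adjusted p = 0.317), and 2 poly(I:C) arrays lay below every control. Another row of the array carries Sema4g together with Mrpl43 and was not used.

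The other named semaphorins differed by less. The secreted repellent Sema3a was at 6.41 ± 0.11 in poly(I:C) offspring and 6.28 ± 0.18 in controls, a difference of 0.12 (adjusted p = 0.495). Differences were -0.12 for Sema6d, -0.076 for Sema6a, -0.054 for Sema4d, 0.044 for the lipid-anchored Sema7a, 0.022 for Sema3e and -0.020 for Sema5a, with adjusted p from 0.488 to 0.971. By class, 3 of 7 class 3, 4 of 6 class 4, 1 of 2 class 5 and 2 of 4 class 6 semaphorins were higher in value.

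The ephrins showed small differences, and their groups overlapped. Efnb2 and Efnb1, membrane-spanning ligands of EphB receptors, had differences of 0.13 and 0.10 (adjusted p = 0.429 and 0.503). Efnb2 values were 7.27, 7.36 and 7.48 in poly(I:C) offspring and 6.96, 7.28 and 7.42 in controls, so the groups overlapped, and controls 2 and 6 were the lowest arrays. Efnb3, which in mouse stops corticospinal axons at the midline, was at 8.38 ± 0.10 in poly(I:C) offspring and 8.36 ± 0.20 in controls, a difference of 0.020. Of the A-type ligands, Efna3 had a difference of 0.11 and the dim Efna1 one of -0.084. Efna5, a cue that orders topographic maps, was at 6.31 ± 0.25 in poly(I:C) offspring and 6.42 ± 0.22 in controls, a difference of -0.11 (adjusted p = 0.707). A second row of Efna3 was dim and gave 0.051.

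Among the receptors, 12 of 22 were higher in value (54.5%, all rows 50.9%) and 10 lower, and 0 passed the adjusted test. At an unadjusted p under 0.05 there were 4 of the 22, against 14.4% of all rows. Plxna4, a plexin that receives class 6 semaphorins and, together with neuropilins, class 3 semaphorins, had the largest difference of the receptors. Its values were 8.37, 8.47 and 8.58 in poly(I:C) offspring, against 7.93, 8.23 and 8.42 in controls. The poly(I:C) arrays were tightly grouped and 4 of them lay above every control, while control 4 was the lowest array. The means were 8.47 ± 0.08 in poly(I:C) offspring and 8.22 ± 0.17 in controls (SD, n = 6 each), a difference of 0.24 (95% interval 0.09 to 0.40, limma adjusted p = 0.157).

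Plxnb3, a plexin expressed by oligodendrocytes, stood at 6.27, 6.39 and 6.54 in poly(I:C) offspring and at 6.30, 6.55 and 6.98 in controls. Only 2 poly(I:C) arrays lay below every control, and the controls spread more widely, with control 6 the highest. Control 6 was also the highest array of the myelin list, and of the septal, choroid plexus, oligodendrocyte precursor and endothelial lists. Plxnb3 was not among the genes called on the myelin list further below. The difference of Plxnb3 was -0.22 (95% interval -0.43 to -0.0049, limma adjusted p = 0.336). Plxna2 had a difference of 0.12, Plxnd1 of -0.11, Plxnc1 of 0.033, Plxna1 of 0.019 and Plxnb1 of -0.0054, with adjusted p from 0.452 to 0.978. The value of Plxnd1 moved with the fit: it was -0.28 (adjusted p = 0.0869) with the septal list mean as covariate and -0.52 (adjusted p = 0.280) with the myelin list mean. With 1 array left out it ran from -0.21 to -0.017.

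Of the Eph receptors, 7 of 9 EphA genes were higher in value and all 4 EphB genes lower. The EphA count was 6 of 9 after either rescaling of the arrays, 3 of 9 with the cortical or the myelin list mean as covariate, 2 of 9 with the cortical, septal and choroid means together, and 4 of 9 without controls 4 and 6. The count of lower EphB genes was 4 of 4 after either rescaling and with the myelin mean, and 3 of 4 in the other fits just named. Epha8, which was dim, had values of 5.18, 5.29 and 5.47 in poly(I:C) offspring and 5.07, 5.18 and 5.23 in controls, a difference of 0.13 (adjusted p = 0.260). In Epha8 4 poly(I:C) arrays were above every control. Ephb4, a receptor of ephrin-B2 on vessels and also dim, had values of 4.47, 4.57 and 4.67 in poly(I:C) offspring and 4.61, 4.66 and 4.82 in controls, a difference of -0.10 (adjusted p = 0.319). In Ephb4 4 poly(I:C) arrays were below every control. Epha7 was at 8.26 ± 0.12 in poly(I:C) offspring and 8.11 ± 0.18 in controls, a difference of 0.15 (adjusted p = 0.401). Epha5 had a difference of 0.082, Epha4, which binds ligands of both ephrin classes, one of -0.047, and Ephb1 one of -0.050.

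**Figure D2:**
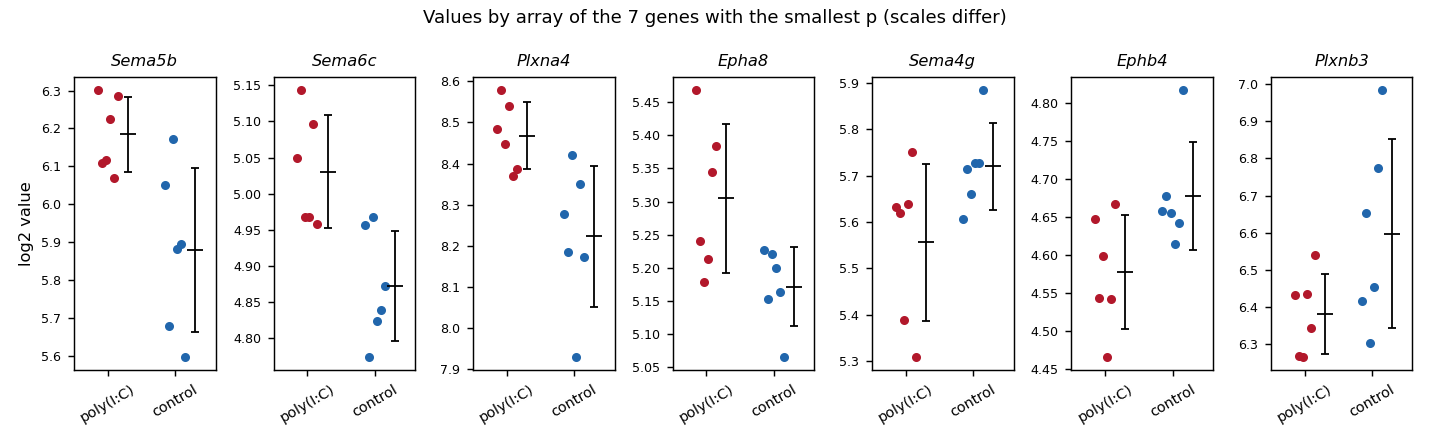
Log2 value of each array for the 7 genes with the smallest unadjusted p, poly(I:C) left and control right, with the mean and SD of 6 arrays beside the points and a separate scale in each panel. The groups overlap in each panel, and in Sema6c, Plxna4, Epha8 and Ephb4 4 poly(I:C) arrays lie outside the control range.

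Known ligand and receptor partners were set side by side, each with its own difference. For Sema3e and its receptor Plxnd1, which in mouse striatum limits thalamic input to direct pathway neurons, the differences were 0.022 (95% interval -0.21 to 0.25) and -0.11 (-0.45 to 0.24). For Sema6a and Plxna4 they were -0.076 and 0.24, and for Sema5a and Plxna2 -0.020 and 0.12. For Sema4d and Plxnb1 they were -0.054 and -0.0054, for Sema7a and Plxnc1 0.044 and 0.033, and for Sema6d and Plxna1 -0.12 and 0.019. For Efna5 with Epha5 and Epha7 they were -0.11, 0.082 and 0.15. For Efnb3 with Epha4 and Ephb1 they were 0.020, -0.047 and -0.050. No partner passed the adjusted test, so these signs are those of single estimates.

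The co-receptors and signalling genes downstream of both systems also gave no call after adjustment. Of 61 listed genes 54 were measured, 36 higher (66.7%, all rows 50.9%) and 18 lower in value, and 0 passed the adjusted test. At an unadjusted p under 0.05 there were 9 higher and 2 lower, together 20.4% of the 54 against 14.4% of all rows. Over all rows 7.83% were higher and 6.57% lower at this level. Their median difference was 0.025. Nrp1 and Nrp2, the neuropilin co-receptors of secreted semaphorins, had differences of 0.00048 and 0.23 (adjusted p = 0.999 and 0.470). Rgs3 came closest to the threshold. It encodes a regulator of G-protein signalling, and an isoform of it binds the tails of B-type ephrins. Its values were 5.20, 5.37 and 5.41 in poly(I:C) offspring and 5.49, 5.69 and 6.03 in controls. The groups did not overlap, and the difference was -0.37 (limma adjusted p = 0.0820). It was -0.17 for the mean of all rows of the gene and -0.21 with the myelin list mean as covariate. The small GTPase Rhoa had a difference of -0.11 (adjusted p = 0.209). Crmp1, a mediator of the collapse response to Sema3A, and Cdk5, a kinase that acts on this protein family, had differences of 0.14 each (adjusted p = 0.284 and 0.289).

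A few genes differed widely between animals of the same group, as the plot of deviations by array shows. Plxnd1 had the widest spread within groups with an SD of 0.32, followed by Sema5a with 0.30, Efna5 with 0.24 and Plxna1 with 0.23. Plxnd1 values were 7.72, 7.80, 8.02, 7.70, 7.38 and 8.35 in poly(I:C) offspring 1 to 6, against 8.26, 7.76, 8.22, 7.97, 7.998 and 7.41 in controls 1 to 6. Sema5a values were 7.33, 7.40, 7.13, 7.62, 7.48 and 6.80 in poly(I:C) offspring, against 7.07, 7.54, 7.14, 7.10, 7.17 and 7.85 in controls. In poly(I:C) 6 Plxnd1 was at its highest and Sema5a at its lowest, and in control 6 Sema5a was at its highest and Plxnd1 near its lowest.

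**Figure D3:**
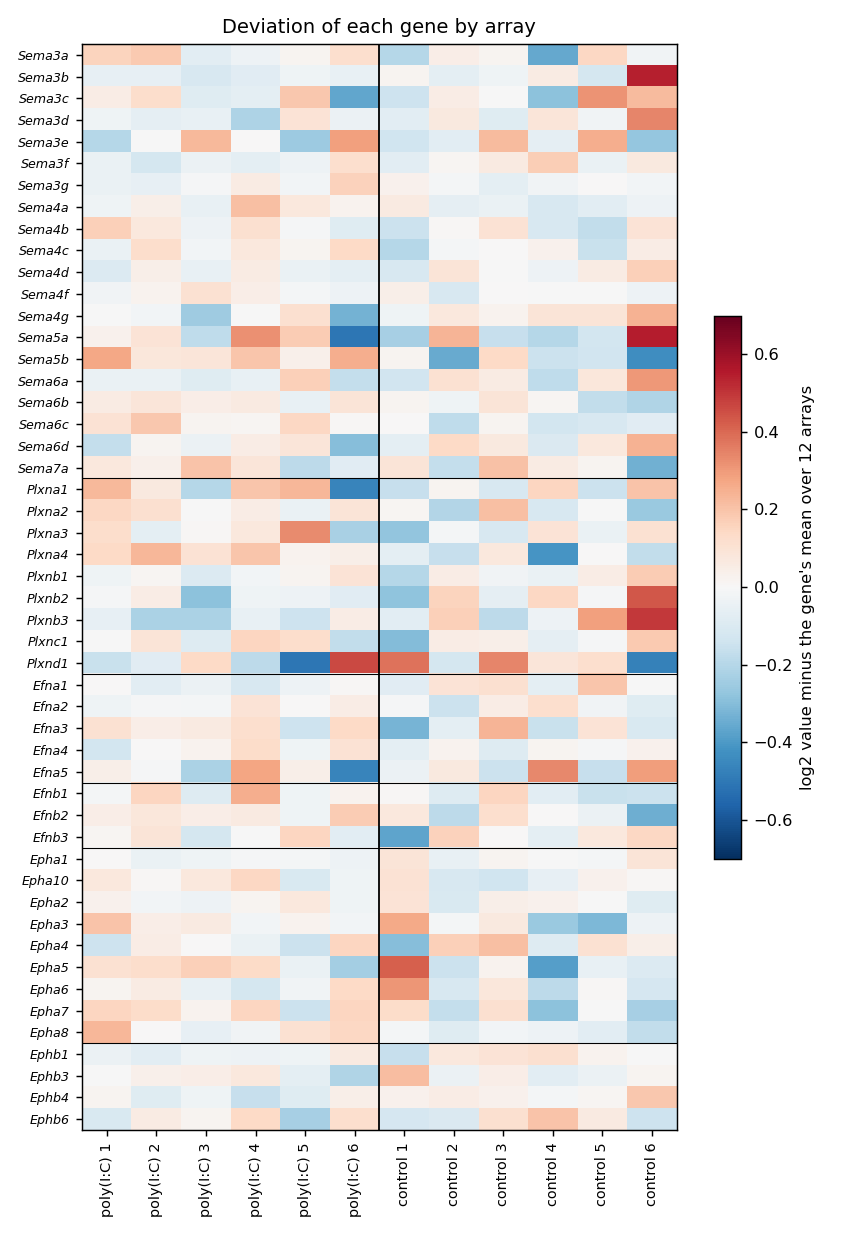
Log2 value of each of the 50 genes minus its own mean over the 12 arrays, with genes in rows by family and arrays in columns, poly(I:C) left of the line and control right. No block of rows is of uniform colour on either side, and the strongest colours lie in single arrays such as poly(I:C) 6 and control 6.

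The variation between arrays was then set against the marker lists. For each of 9 lists, each row was fitted with exposure and the array mean of the list, and the slope was tested across all rows. A slope of 1 means that the gene's log2 value changes by as much as the list mean does. This step was added after the values had been seen. The septal, pallidal and diencephalic list gave the most calls: 8 of the 50 genes (16%) followed it at an adjusted p under 0.05, against 2.79% of all rows. Adjusted over the 9 lists together, 4 of the 8 stayed under 0.05, namely Plxnd1, Sema5a, Efnb2 and Sema5b. The list holds Lhx6 and Lhx8, which also mark striatal interneurons. The list means did not vary separately. Control 6 had the highest septal mean, 6.52, and the lowest medium spiny neuron mean, 9.25. Poly(I:C) 6 had the lowest septal mean, 5.55, and the highest medium spiny neuron mean, 9.86. Sema5a was called on the septal, astrocyte and medium spiny neuron lists. Since each list was fitted alone, a slope on 1 list cannot be told apart from one on a list that varies with it.

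Plxnd1 fell as the septal list mean rose, with a slope of -1.12 (SE 0.128, limma adjusted p = 0.000953). Efnb2 had a slope of -0.44 (SE 0.080, adjusted p = 0.0120) and Sema5b of -0.52 (SE 0.110, adjusted p = 0.0234). Sema5a rose with the list, with a slope of 0.98 (SE 0.161, adjusted p = 0.00692). Plxna3, which was named after its slope was seen, Plxnc1, Sema6a and Sema6d had slopes from 0.42 to 0.49 (adjusted p from 0.0337 to 0.0393). Within the 6 poly(I:C) arrays the slope of Plxnd1 was -1.35, against -0.996 within the 6 controls, and for Sema5a the slope was 1.01 within the poly(I:C) arrays and 0.97 within the controls. All 8 slopes had the same sign in both groups. The 8 genes were picked by their slope over these same arrays, so this is no separate evidence. Within the poly(I:C) group the list mean spread mainly through arrays 5 and 6, at 6.26 and 5.55, with the others from 5.89 to 5.98. The calls rested largely on the controls at the high end of the list, 2 and 6, at 6.35 and 6.52. Without control 6 only Plxnd1 was called of the 50, against 0.471% of all rows. Without both, 0 of the 50 genes were called, against 0.0377% of all rows, and 13 had an unadjusted p under 0.05, against 7.80% of all rows. All 8 slopes kept their sign, though the genes had been picked with these arrays included. Without both, the slope was -1.26 for Plxnd1, 0.85 for Sema5a, -0.27 for Efnb2 and -0.34 for Sema5b.

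**Figure D4:**
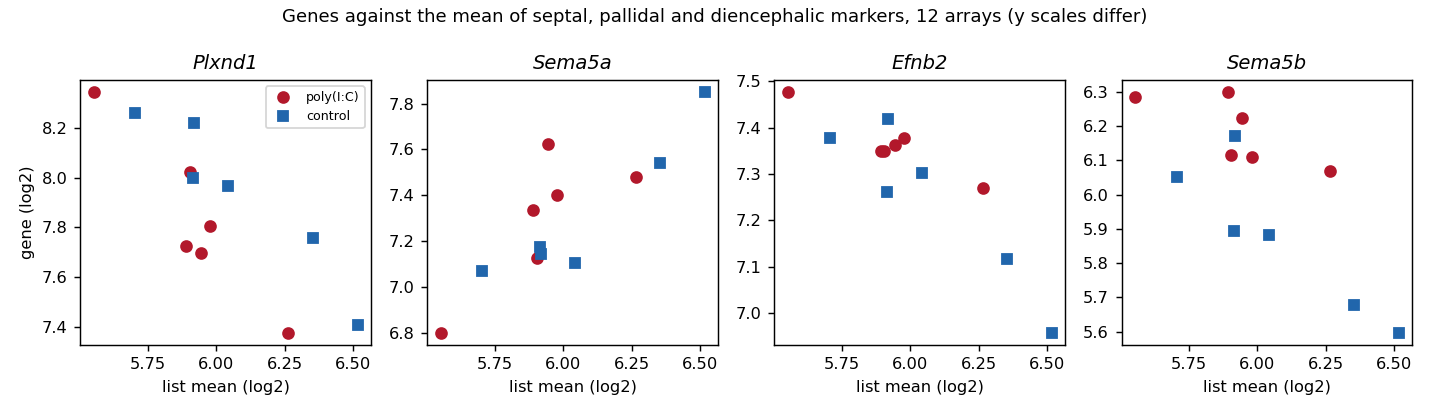
Log2 value of Plxnd1, Sema5a, Efnb2 and Sema5b against the mean log2 value of 9 septal, pallidal and diencephalic marker genes, with a circle for each of the 6 poly(I:C) arrays, a square for each of the 6 controls and a separate vertical scale in each panel. Plxnd1, Efnb2 and Sema5b run downward and Sema5a upward in both groups, and controls 2 and 6 lie at the right end. The genes were chosen by their slope over these same arrays.

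Promoter windows are shown for the 4 of these 8 genes that stayed under 0.05 over the 9 lists together. They allow the start regions of genes running in opposite directions to be compared. Plxnc1, Plxna3, Sema6a and Sema6d, which rose with the list, are not shown. The windows are RefSeq windows of GRCm38.p6, from 250 bases before to 50 bases after the start, and 44 of the 50 genes had a window in the table. Plxnd1 lies at chr6:115994956-115995255 on the minus strand, Efnb2 at chr8:8661193-8661492 on the minus strand, Sema5b at chr16:35541112-35541411 on the plus strand and Sema5a at chr15:32244563-32244862 on the plus strand. Each is read 5′ to 3′ on the strand of the gene. Capitals mark matches on either strand to the GC box GGGCGG, the CCAAT box and the TATA box TATAAA, and neighbouring matches can share bases.
Plxnd1: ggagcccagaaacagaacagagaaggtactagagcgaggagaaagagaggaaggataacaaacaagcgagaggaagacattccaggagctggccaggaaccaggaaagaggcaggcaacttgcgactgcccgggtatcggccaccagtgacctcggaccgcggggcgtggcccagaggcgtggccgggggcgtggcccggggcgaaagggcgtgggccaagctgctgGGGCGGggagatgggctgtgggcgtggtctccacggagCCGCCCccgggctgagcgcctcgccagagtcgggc
Efnb2: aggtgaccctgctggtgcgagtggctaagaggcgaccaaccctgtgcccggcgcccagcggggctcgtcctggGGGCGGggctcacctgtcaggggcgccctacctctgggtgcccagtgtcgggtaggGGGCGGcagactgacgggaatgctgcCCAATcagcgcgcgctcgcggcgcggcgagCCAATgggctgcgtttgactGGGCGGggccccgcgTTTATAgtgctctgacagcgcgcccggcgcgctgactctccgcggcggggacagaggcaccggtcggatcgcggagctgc
Sema5b: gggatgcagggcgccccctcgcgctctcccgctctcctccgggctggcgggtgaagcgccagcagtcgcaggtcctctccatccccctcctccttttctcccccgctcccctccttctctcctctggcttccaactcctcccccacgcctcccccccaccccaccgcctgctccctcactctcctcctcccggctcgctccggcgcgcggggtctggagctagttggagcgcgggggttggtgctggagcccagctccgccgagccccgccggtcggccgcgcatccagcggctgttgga
Sema5a: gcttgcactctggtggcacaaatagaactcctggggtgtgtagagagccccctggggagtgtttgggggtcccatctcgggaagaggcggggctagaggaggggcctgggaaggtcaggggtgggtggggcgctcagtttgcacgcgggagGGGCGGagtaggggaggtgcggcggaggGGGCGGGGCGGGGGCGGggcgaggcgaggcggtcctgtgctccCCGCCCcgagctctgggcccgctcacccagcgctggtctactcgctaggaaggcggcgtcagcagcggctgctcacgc
The window of Plxnd1 held 2 GC boxes, that of Sema5a 5, that of Efnb2 3, and that of Sema5b 0. Efnb2 also held 2 CCAAT matches and 1 TATA match, and the other windows held 0 of either. Over all 32851 windows, 35.7% held a GC box, 37.4% a CCAAT match and 13.6% a TATA match. Of the 58 windows of the guidance genes, 75.9% held a GC box, 32.8% a CCAAT match and 1.72% a TATA match. A match is a run of letters, not a measured binding site.

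The other 8 lists gave fewer calls among the 50 genes. The cortical list was followed by 2 genes (4%, background 1.02%), Epha5 with a slope of 0.47 (SE 0.083, adjusted p = 0.0121) and Ephb3 with 0.23 (adjusted p = 0.0472). Epha5 was highest in control 1 at 7.74, the control with the highest cortical mean. The astrocyte list was followed by Sema3c, Sema6a and Sema5a (6%, background 2.27%), with slopes of 1.08, 0.75 and 1.46. The myelin and oligodendrocyte list was followed by Sema5b with -0.85 and Plxnb2 with 0.92 (4%, background 1.4%). The oligodendrocyte precursor list was followed by Efnb3 and Sema4d (4%, background 3.93%), the microglial list by Sema3e (2%, background 0.476%) and the medium spiny neuron list by Sema5a with -1.49 (2%, background 1.04%). The choroid plexus and ependymal list was followed by 0 genes (background 0.452%), with 14 of 50 at an unadjusted p under 0.05 against 8.88% of all rows. The endothelial and pericyte list was followed by 0 genes (background 0.118%), with 7 of 50 at an unadjusted p under 0.05 against 14.3% of all rows. Adjusted over the 9 lists together, neither Efnb3 nor Sema4d stayed under 0.05, and the precursor list had 0 genes, against 410 of all 21218 rows. The counts were then 2 for the cortical, 3 for the astrocyte, 2 for the myelin, 1 for the microglial, 2 for the medium spiny neuron, 2 for the choroid plexus and 0 for the endothelial list. The counts over all rows ran from 154 to 326 for these 7 lists.

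With these list means in the fit, the estimates for the exposure moved. With the myelin and oligodendrocyte mean as covariate, the difference of Sema5b was -0.0027 and that of Plxnb3 0.087, opposite in sign to the values above. Neither was distinct from 0 (limma unadjusted p = 0.974 and 0.456). That list mean barely overlapped between the groups, so this fit separates exposure from the list mean poorly. With the cortical mean, Plxna4 was at 0.16 and Plxnb3 at -0.086. When the means for cortex, septum and choroid plexus were entered together, Plxna4 was at 0.11 and Sema5b at 0.18. Plxna4 was at 0.20 with the myelin mean and at 0.23 with the septal mean. Sema6c kept values between 0.10 and 0.16 over these fits and Epha8 between 0.051 and 0.14. Ephb4 ran from -0.094 to -0.026 and Sema4g from -0.12 to -0.055. Without controls 4 and 6, Sema5b was at 0.23, Plxna4 at 0.16 and Sema6c at 0.15. In these 5 fits, the septal mean alone included, 0 of the 50 genes passed after adjustment, and 5 to 8 had an unadjusted p under 0.05 (10% to 16%, against 8.33% to 15.1% of all rows).

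**Figure D5:**
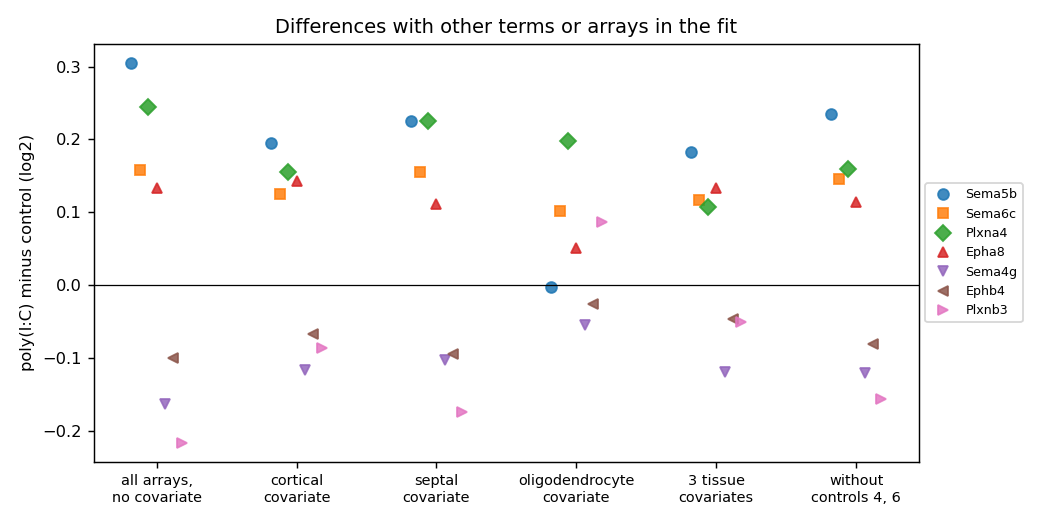
Poly(I:C) minus control difference on the log2 scale for the 7 genes with the smallest unadjusted p, with all arrays, with a marker list mean as covariate, and without controls 4 and 6. Sema5b moves from 0.30 with no covariate to -0.0027 with the oligodendrocyte covariate, a list mean that barely overlapped between the groups. Plxna4, Sema6c and Epha8 stay above 0 in each column, and Sema4g and Ephb4 below 0.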

How the data were processed

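Affymetrix Mouse Gene 1.1 ST arrays were run on total RNA of micro-dissected accumbens, core and shell together, 6 animals per group. The authors deposited 1 log2 value per row and array for 35556 rows, made with RMA and Partek 6.6 per the submitters' processing notes. RMA gives all arrays a common distribution, which hides any shift that most genes share. Its settings are not stated, and the genome build is not given in the sources used here. Sequencing depth does not apply to arrays, and 6 arrays per group limit the precision.

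Rows were named from the platform annotation (21218 with 1 symbol, 1881 with several, 12457 with no listed gene), and the first kind was tested. All 50 genes matched the RefSeq gene table of GRCm38.p6 by gene ID with the same symbol. The 2 rows of Sema6b held identical values.

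limma 3.58.1 (R 4.3.3; lmFit, eBayes) fitted exposure alone, two-sided, with Benjamini-Hochberg adjustment over the 21218 rows and a threshold of 0.05. Each difference is the poly(I:C) mean less the control mean. On simulated data with the spreads of all 21218 rows, the fit recovered 66% of changes of 0.25 and 98% of changes of 0.5 for this comparison. The simulation held 50 planted changes at each of the sizes 0.25, 0.5, 1 and 2, and its noise was independent between rows. Planted changes ease the adjusted cutoff, and rows of real arrays vary together. These shares may therefore not hold for the deposited data, where 13 rows passed. The median SD within groups was 0.087 for all rows and 0.136 for the 50 guidance genes. Recovery at the spread of the 50 genes was not tested. Alternatives were renormalization, centring, a filter on dim rows, array weights, another prior, 1 row per gene, a replicate block, marker list covariates and arrays left out.

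The genes, lists and tests were chosen with earlier results of these data known. Named are genes with an unadjusted p under 0.05, the 2 smallest p per family, fixed striatal guidance genes and ligand-receptor pairs, and the 4 signalling genes with the smallest p. Ephb2, which is in that fixed list, was not analysed here. Plxna3, Sema3c, Plxnb2 and Ephb3 were named after their slopes were seen.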

Additional observations from a re-analysis of the deposited data

Results flagged for a closer look

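Of 90 groups of 6 arrays checked (36 genes and 9 list means, each in 2 groups), 6 held an array that stood far from the other 5, where chance gives about 5%. Poly(I:C) 5 had Efna3 at 8.22, with the others from 8.41 to 8.50, and Sema6a at 8.24, with the others from 7.90 to 8.03. Poly(I:C) 6 had Ephb1 at 6.61, with the others from 6.48 to 6.52, and Rgs3 at 5.20, with the others from 5.33 to 5.41. Control 6 had Ephb4 at 4.82, with the other controls from 4.61 to 4.68. Poly(I:C) 1 had the mean of the endothelial and pericyte list at 6.26, with the others from 6.39 to 6.45.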

How the results depend on the processing

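Under all 24 alternative settings 0 of the 50 guidance genes passed after adjustment, with 4 to 14 at an unadjusted p under 0.05. There were 14 without control 1 (28%, all rows 14.8%), 13 without control 3 (26%, all rows 17.1%), 4 without control 2 (8%, all rows 12.7%) and 4 of 37 among rows at or above the median level (10.8%, all rows 17.8%). Over all rows the count of 13 moved widely. It was 38 after quantile normalization once more, 20 among rows at or above the median level, 140 with array weights, 1 with a trended robust prior, 40 with the septal mean as covariate, 0 with the cortical mean, the oligodendrocyte mean or the 3 tissue means as covariates, and 0 without controls 4 and 6. With 1 array left out it ran from 0 to 84. With the replicate number as a block it was 0 over all rows and 0 for the 50 genes (7 at an unadjusted p under 0.05). Deviations of same-numbered arrays correlated from -0.20 to 0.27, and 2 of 12 arrays correlated best with their own number, so the numbers were not taken as pairs.

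Rgs3 passed with array weights (-0.34, adjusted p = 0.0421) and with the septal covariate (-0.31, adjusted p = 0.0493). The count of guidance genes called on the septal list, 8 with all arrays, was 0 without controls 2 and 6, 3 with the cortical and choroid plexus means also in the model, and 6 with the replicate block. With 1 array left out this count ran from 1 to 10, and 1 to 8 of the first 8 genes were among those called. Of these 8, 1 was called without control 6, 4 when either of controls 1 and 2 or either of poly(I:C) arrays 5 and 6 was dropped, and 5 when poly(I:C) array 2 or 3 was. With each list gene left out the count ran from 6 to 8, and 5 to 8 of the first 8 were among them, 5 without Slc17a6.

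Of 35 named genes, 14 kept their sign in every setting, and the cause was not tested for the others. The oligodendrocyte list mean barely overlapped between the groups, so a fit with it separates exposure from that list mean poorly. With the oligodendrocyte covariate, Sema5b was at -0.0027, Plxnb3 0.087, Efnb2 -0.11, Efnb1 -0.0090, Epha7 -0.020, Epha4 0.12, Epha5 -0.13, Sema3e -0.069, Plxna2 -0.072, Sema6d 0.040, Sema6a 0.13, Sema7a -0.23, Sema5a 0.37, Plxnb1 0.18 and Sema4d 0.089. With the 3 tissue covariates, Epha7 was at -0.00015, Ephb1 0.0040, Epha5 -0.16, Sema3e -0.047, Sema7a -0.11, Sema5a 0.050 and Plxnb1 0.091. With the cortical covariate, Ephb1 was at 0.0070, Epha4 0.017, Epha5 -0.14, Sema3e -0.0040, Sema7a -0.094, Sema5a 0.032 and Plxnb1 0.087. With the septal covariate, Sema3e was at -0.053, Sema7a -0.019, Sema5a 0.13 and Plxnb1 0.024. Without controls 4 and 6, Epha5 was at -0.018, Sema3e -0.054, Efna5 0.016, Sema7a -0.014, Sema5a 0.062 and Plxnb1 0.027. With array weights, Efnb3 was at -0.022, Sema3e -0.037 and Sema5a 0.0087. After quantile normalization Nrp1 was at -0.018 and Plxna1 at -0.0038, after centring Nrp1 was at -0.0047, and over its 2 rows Plxnb1 was at 0.0098. With 1 array left out, differences ran from -0.052 to 0.054 for Efnb3, -0.033 to 0.076 for Sema3e, -0.075 to 0.13 for Nrp1, -0.026 to 0.11 for Plxna1, -0.018 to 0.090 for Sema7a, -0.024 to 0.073 for Plxnc1, -0.086 to 0.087 for Sema5a and -0.045 to 0.030 for Plxnb1.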
